A study of Saccharomyces cerevisiae with 2 samples.

Results

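REB1, ABF1, RAP1, CBF1, MCM1 and TBF1 encode the general regulatory factors of budding yeast, abundant DNA-binding proteins that hold promoters free of nucleosomes so that other factors can act there. These 6 genes were taken by name from 6002 protein-coding genes, and all 6 were found by symbol. DNase I cuts DNA readily where chromatin is accessible, and each deposited list gives such stretches as hotspots. The wild-type (WT) library came from W303, a common laboratory strain, and the other library from W303 cells with the temperature-sensitive Hsp90 allele G170D. Hsp90 is a chaperone that stabilises kinases and transcription factors, and the study asked how chromatin differs when it is inactivated. Both cultures grew in YPD at 30 °C until the optical density had gone from 0.25 to 0.65, and spent 15 min at 37 °C, which is non-permissive for the mutant. The labels do not say how the allele is carried or whether another functional Hsp90 gene is present.

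Each strain gave 1 library, so every value below is a single value per strain, and no difference has a replicate check or a p-value. With no library from before the shift, a difference due to the strain at 30 °C and one that arose at 37 °C cannot be told apart. The WT list held 7050 hotspots over 3.83 Mb and the G170D list 5988 over 3.33 Mb. The depth is unknown, so a stretch outside a hotspot was not called accessible at this depth, which does not show that it was closed. The G170D list covered less of the genome as a whole, and the values of all protein-coding genes are therefore given beside those of the 6 genes.

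General regulatory factors differ in their DNA-binding domains and in the places where they act. Reb1, a Myb-type protein, binds many promoters and also ends transcription by RNA polymerase II. Abf1 binds promoters, replication origins and silencers. Rap1 binds telomeres, silencers and the promoters of ribosomal protein and glycolytic genes. Cbf1, a helix-loop-helix protein, binds centromeres and the promoters of sulfur genes. Mcm1, a MADS-box protein, works with partners at cell-type and cell-cycle genes, and Tbf1 binds subtelomeric repeats and promoters that include those of small nucleolar RNA genes. The following values concern the chromatin at the genes of these factors, not the binding of the factors themselves.

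A hotspot lay at each of the 6 promoters in WT and in G170D, though its extent differed. The promoter window was the stretch of 500 bp before the coding start, and a hotspot counted if it overlapped that window by at least 1 bp. Among all protein-coding genes, 72.4% had a promoter hotspot in each of the strains, 9.58% had one only in WT, 3.65% only in G170D, and 14.4% had none. Over the 6 windows the median covered length was 488 bp for WT and 377 bp for G170D, beside 317 and 286 bp over all genes. In sum, 87.9% of the bases in the 6 windows lay in WT hotspots and 73.9% in G170D hotspots, beside 58.6% and 53.7% over all genes.

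Promoter coverage was lower in G170D at REB1, CBF1 and TBF1 and within 50 bp of WT at ABF1, RAP1 and MCM1. Differences were counted from 50 bp, which is 10% of the window. By that rule 3 of the 6 promoters were less covered in G170D and 0 were more covered. Over all genes 28.4% were less covered and 13% were more covered. Only RAP1, with 185 covered bp in WT, had room to be more covered by this rule. The other WT windows held 475 to 500 of 500 bp, so the 0 was nearly fixed beforehand and cannot be set against the 13%. Those windows also had more to lose than the median gene, which had 317 bp covered in WT. The median difference was -61 bp over the 6 genes and 0 bp over all genes. A set of 6 genes is small beside a background of 28.4%, and the 3 genes were not shown to differ from other genes.

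**Figure D1:**
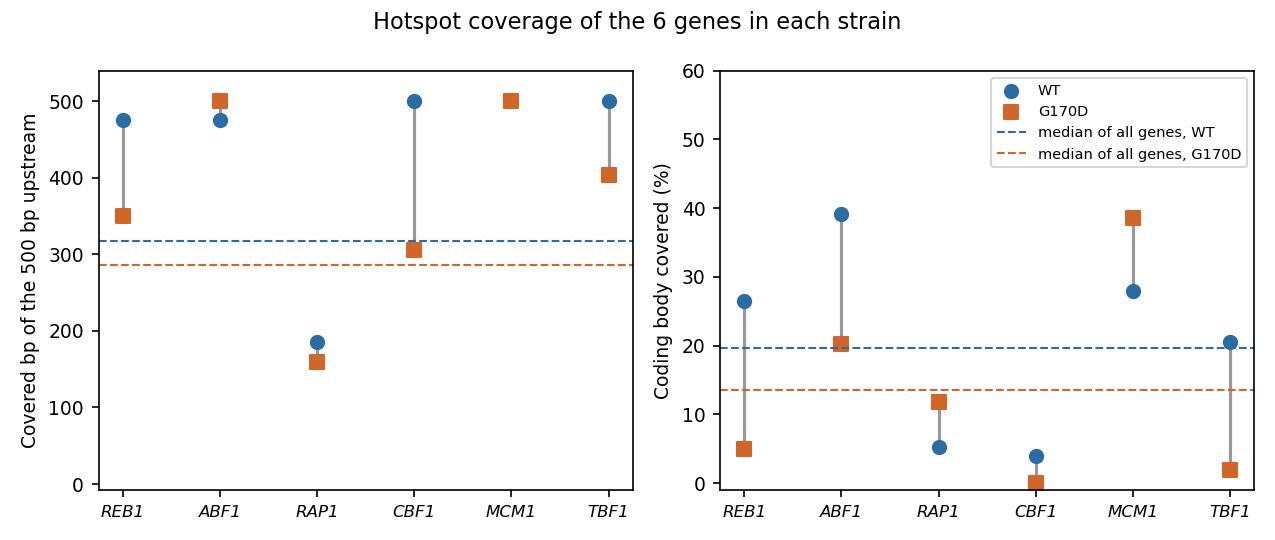
Left, base pairs of the 500 bp upstream of the coding start that lay in hotspots; right, percent of the coding body in hotspots, for each gene in WT (circles) and G170D (squares), 1 library each, with dashed lines at the medians of all protein-coding genes. CBF1, REB1 and TBF1 have lower promoter values in G170D, and at MCM1 both promoter symbols lie on each other at 500 bp.

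CBF1 had the largest difference in promoter coverage of the 6 in the 500 bp window, but not in one of 1000 bp, where it was -181 bp at CBF1, -299 bp at REB1 and -247 bp at RAP1. The gene lies on chromosome X, 548759 to 549814 (sacCer3, plus strand). Hotspots took up all 500 bp of its window in WT but 305 bp in G170D, a difference of -195 bp. A difference at least as low was found at 10.1% of all genes. The WT hotspot spanned 569 bp, from position -527 to position +41, where position 0 is the first coding base and negative positions are upstream. The G170D hotspot spanned 346 bp, from -541 to -196. The upstream edges thus lay 14 bp apart, near the end of PTK2, a kinase gene that ends 515 bp before CBF1, while the edges toward CBF1 lay 237 bp apart. The score of this hotspot ranked at percentile 56.7 of the WT list and 69.6 of the G170D list, so the narrower G170D hotspot was not among the low-scoring ones.

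REB1 lies on chromosome II, 334386 to 336818 (minus strand), with 475 bp of its window covered in WT against 350 bp in G170D. A hotspot of 773 bp reached from -475 to +297 in WT, and one of 350 bp reached from -430 to -81 in G170D. Both edges of the G170D hotspot lay inside the WT hotspot, and the edge toward the gene was 378 bp farther upstream. Of the window, 136 bp lie in the coding body of the neighbour REG2, which encodes a regulatory subunit of the Glc7 phosphatase, since only 364 bp separate the genes. Within those 364 bp the difference was -80 bp.

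TBF1 lies on chromosome XVI, 306533 to 308221 (minus strand), and its window held 500 covered bp in WT against 404 bp in G170D. Here the hotspot was about as wide in both strains, with widths of 813 and 821 bp, but its place differed. It ran from -795 to +17 in WT and from -917 to -97 in G170D, which put the G170D hotspot 122 bp farther upstream at one edge and 114 bp at the other. On its upstream side it reached the end of HHO1, the linker histone gene, which lies 606 bp from TBF1. Hotspots covered 26.4% of the HHO1 coding body in WT and 67.2% in G170D. Part of that difference lay in a separate hotspot at the other end of HHO1. Counted from TBF1, it ran from -2386 to -1368 in WT and from -1910 to -1173 in G170D. In a window of 1000 bp TBF1 coverage differed by 26 bp in the other direction.

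The other 3 promoters had nearly the same edges near the gene in both strains. ABF1 lies on chromosome XI, 226570 to 228765 (plus strand), and its window held 476 covered bp in WT against 500 bp in G170D. The hotspots there reached from -844 to -25 and from -763 to +12, and both extended into RAD27, the divergent gene of a flap endonuclease, 694 bp away. In a 1000 bp window the ABF1 difference, G170D minus WT, was -57 bp. MCM1 lies on chromosome XIII, 353871 to 354731 (plus strand), and its full window was covered in both strains. It sat at the end of a wide hotspot, 2402 bp from -2161 to +240 in WT and 2510 bp from -2248 to +261 in G170D. That hotspot also held all of ARG80, the gene of a MADS-box relative of Mcm1 that controls arginine genes, so coverage at MCM1 and ARG80 is not independent.

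RAP1 had the least covered promoter of the 6. The gene lies on chromosome XIV, 241689 to 244172 (plus strand). Hotspots took up 185 bp of its window in WT and 159 bp of it in G170D, below the medians of all genes in both strains. The hotspot reached from -231 to -47 in WT and from -206 to -48 in G170D, so that the edge near the gene differed by 1 bp. Its score ranked at percentile 31.6 of the WT list and 21.3 of the G170D list, lower than at the other 5 promoters. A farther pair of hotspots inside PPN2, a polyphosphatase gene, differed more, with 425 bp from -982 to -558 in WT and 204 bp from -763 to -560 in G170D. The 1000 bp window, in which RAP1 differed by -247 bp, takes in that pair.

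**Figure D2:**
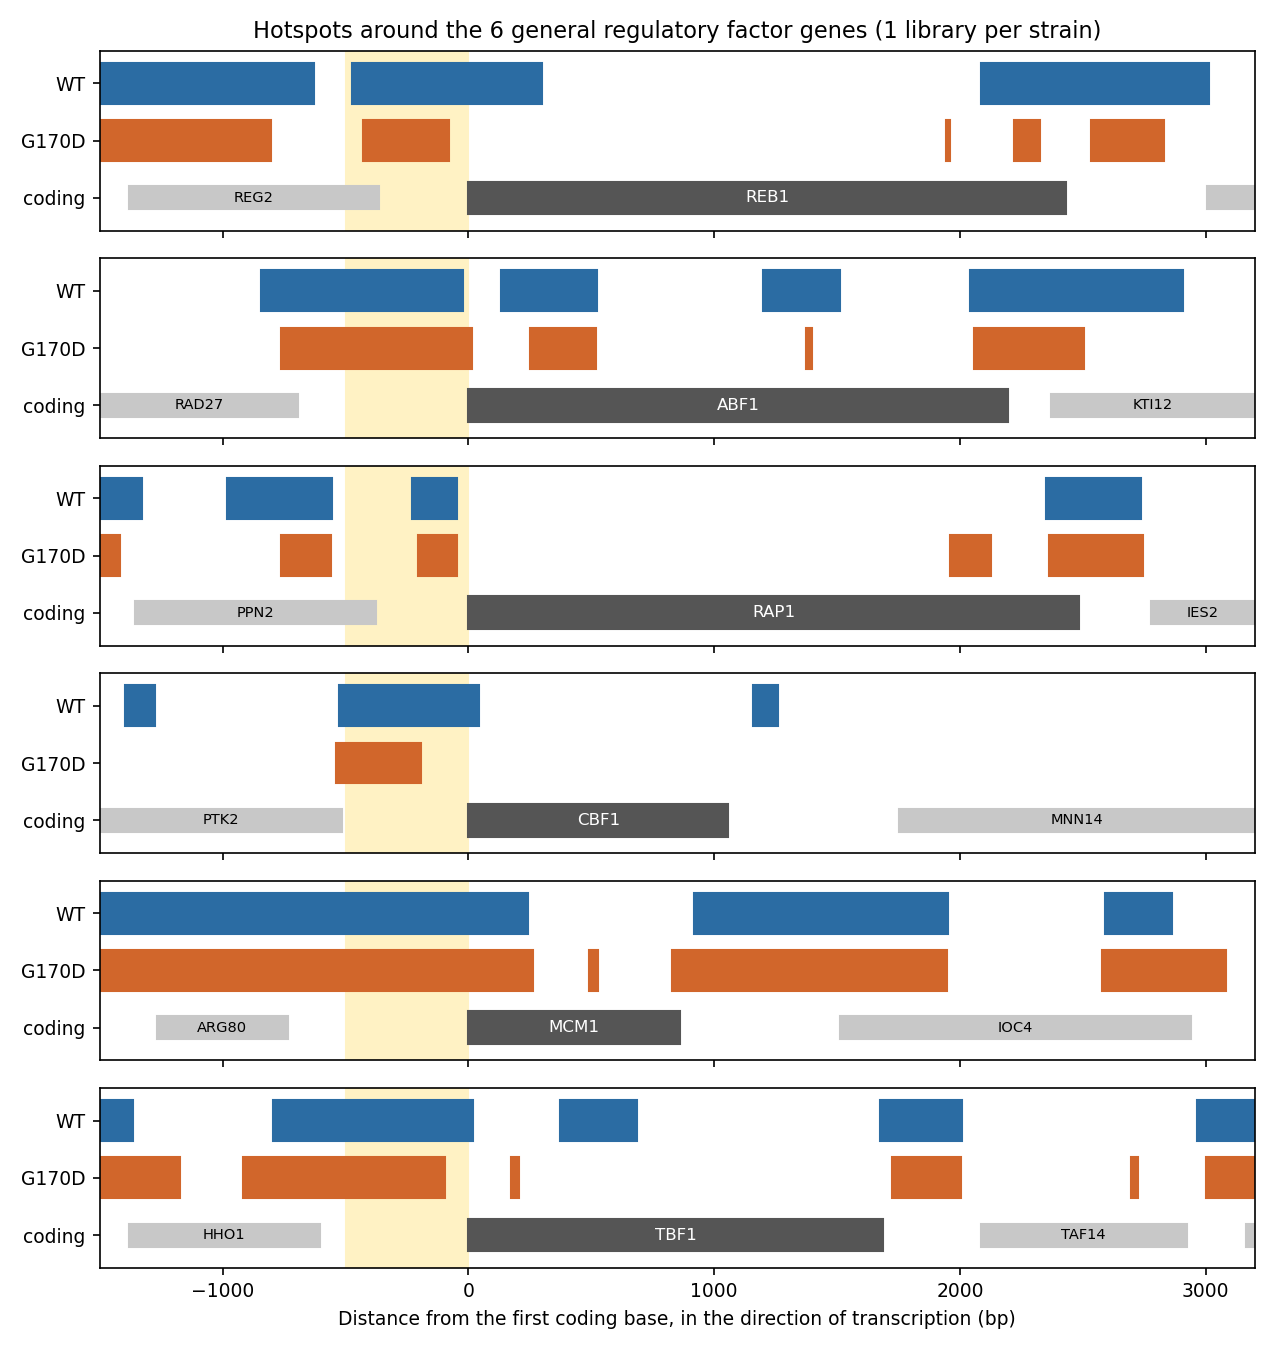
Hotspots of WT (blue, 1 library) and G170D (orange, 1 library) around the 6 genes, aligned at the first coding base and drawn in the direction of transcription, with distance in bp on the horizontal axis; dark bars are the coding bodies, light grey bars are other protein-coding genes and the shaded band is the 500 bp promoter window. At REB1, CBF1 and TBF1 the WT hotspot runs over the coding start and the G170D hotspot ends before it.

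The start-side edge, the end of the promoter hotspot toward the gene, comes from the same intervals as promoter coverage. That it marked the same 3 genes is therefore not separate support. This measure was chosen after the values of the 6 genes were seen. The edge lay at least 50 bp farther upstream in G170D at 3 of the 6 genes, by 378 bp at REB1, 237 bp at CBF1 and 114 bp at TBF1. It was within 50 bp at the other 3, with differences of +37 bp at ABF1, +21 bp at MCM1 and -1 bp at RAP1. Among the 4344 genes with a promoter hotspot in both strains, the edge lay that much farther upstream in 35.4% and farther downstream in 19.5%, with a median difference of -20 bp. In WT the edge lay inside the coding body at 4 of the 6 genes, and at 3 of those 4 it lay upstream of the coding start in G170D. Of the 4344 genes with a hotspot in both strains, 3095 had such an edge in WT, and 15.9% of these had it upstream of the start in G170D. The 3 genes are those already described as less covered, and a set of 4 is too small to set against that share.

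Base by base, all 6 genes were covered at 200 bp upstream of the start in both strains, beside 64.3% of all genes in WT and 59.4% in G170D. At 50 bp upstream all 6 were covered in WT and 3 in G170D, namely ABF1, RAP1 and MCM1. Over all genes 60.7% were covered there in WT and 55.3% in G170D. At the first coding base REB1, CBF1, MCM1 and TBF1 were covered in WT and ABF1 and MCM1 in G170D, beside 55.0% and 49.8% of all genes.

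**Figure D3:**
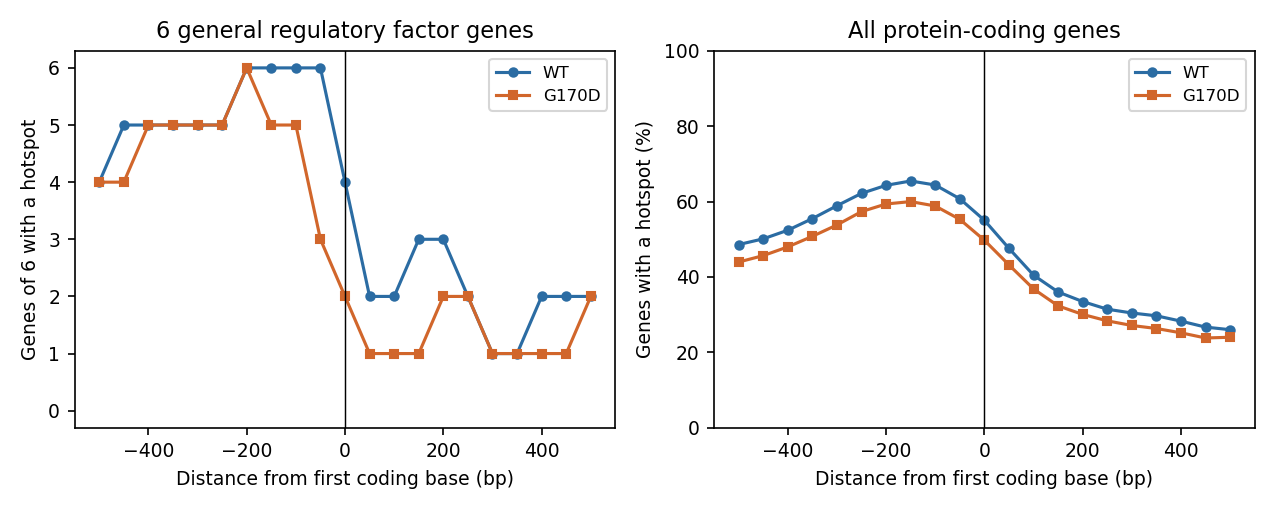
Number of the 6 genes (left) and percent of all protein-coding genes (right) with a hotspot at positions every 50 bp from 500 bp upstream to 500 bp downstream of the first coding base, in WT (circles) and G170D (squares), 1 library each. The curves of the 6 genes differ most at 50 bp upstream, where 6 genes are covered in WT and 3 in G170D. Smaller gaps lie at other positions, such as 450 bp upstream and 150 bp downstream of the first coding base.

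Coding bodies were less covered in G170D at REB1, ABF1 and TBF1 and more covered at MCM1. Differences were counted from 10 percentage points of the coding length, by which 3 of 6 were less covered and 1 was more covered. Over all genes 29% were less covered and 12.5% were more covered. In sum, 21.1% of the coding bases of the 6 genes lay in WT hotspots and 11.4% in G170D hotspots, beside 22.9% and 19.0% over all genes. The WT sum of 2266 bp includes low-scoring hotspots of 314 bp at ABF1 (percentile 7.97) and 313 bp at TBF1 (percentile 1.41). The G170D sum of 1224 bp also includes low-scoring ones, such as 170 bp at RAP1 (percentile 20.9). The pooled difference thus depends in part on low-scoring hotspots.

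Of the 2433 bp of the REB1 body, hotspots took up 644 bp (26.5%) in WT but 123 bp (5.06%) in G170D. In WT, 298 bp belonged to the promoter hotspot and 346 bp to a hotspot of 926 bp across the end of the gene. In G170D only pieces of 14 and 109 bp lay in the body, and a separate hotspot of 298 bp lay past its end. Of the 2196 bp of the ABF1 body they took up 860 bp (39.2%) in WT but 444 bp (20.2%) in G170D. ABF1 held a hotspot early in the body in both strains, from +132 to +522 in WT and from +249 to +518 in G170D. Its mid-body hotspot, 314 bp in WT and 24 bp in G170D, scored at percentile 7.97 of the WT list, and with lists of equal length the ABF1 difference was -4.64 percentage points. With the higher-scoring 50% of each list it was -18.0, beside -18.9 with the full lists, but these values rest on different bases. That filter dropped the mid-body hotspots. It kept the early WT hotspot (391 bp, percentile 55.0) and dropped the early G170D hotspot (270 bp, percentile 42.1).

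The TBF1 body held 347 covered bp (20.5%) in WT but 33 bp (1.95%) in G170D. Of the WT bases, 313 bp came from 1 hotspot from +371 to +683 at percentile 1.41 of the WT scores, close to the bottom of that list. Without the lowest-scoring WT hotspots, in lists of equal length, the TBF1 difference was -0.06 percentage points, and with the higher-scoring 50% of each list it was -2.01. CBF1 had 42 bp (3.98%) covered in WT and 0 bp in G170D.

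MCM1 had more of its body covered in G170D, and RAP1 did when all hotspots were counted. Of the 861 bp of the MCM1 body, hotspots took up 241 bp (28.0%) in WT but 332 bp (38.6%) in G170D. The added bases were 21 bp at the promoter hotspot, a hotspot of 37 bp at percentile 3.82 of the G170D scores, and 33 bp of a hotspot that ran on into IOC4, the gene of a chromatin remodeller subunit. The RAP1 body held 132 covered bp (5.31%) in WT but 292 bp (11.8%) in G170D, of which 170 bp came from a hotspot from +1958 to +2127 that met no WT hotspot. Its score ranked at percentile 20.9 of the G170D list. The RAP1 difference was +6.44 percentage points with all hotspots but -0.40 with the higher-scoring 50% of each list. Hotspots that lay wholly inside 1 of the 6 bodies numbered 3 in WT, of 313 to 391 bp, and 7 in G170D, of 14 to 270 bp.

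Past the coding end, the 500 bp downstream were less covered in G170D at REB1, ABF1 and CBF1 and more covered at MCM1. This window was also added after the values were seen. Differences of at least 50 bp put 3 of 6 genes lower and 1 higher in G170D, beside 28.4% lower and 10.9% higher over all genes. At REB1 hotspots took up all 500 bp of the downstream window in WT but 298 bp in G170D. At ABF1 it was covered over 500 and 308 bp, in a hotspot shared with the convergent gene KTI12, which functions in tRNA modification. KTI12 itself had 62.8% of its body covered in WT and 14.3% in G170D. At CBF1 the only downstream hotspot was a WT hotspot of 103 bp at percentile 3.95 of its list, with 0 bp in G170D. RAP1 had 252 and 263 bp covered there, TBF1 320 and 281 bp, and MCM1 442 and 500 bp.

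The 6 genes did not share 1 pattern. Over the 500 bp on either side of the coding start in both lists, 2000 bases in all, CBF1 and TBF1 had the same state at 85.8% of bases, the highest of the 15 pairs among the 6 genes. REB1 and CBF1 followed at 76.7%, and ABF1 and RAP1 were least alike at 36.8%. Among all other genes with a standard symbol, the pattern most like CBF1 was that of MNS1, with 99.1% identical bases, and the one most like MCM1 was that of ATG3 (98.9%). The closest to RAP1 was SSY1 (96.9%), to ABF1 RXT3 (95.7%), to TBF1 PHO87 (95.1%) and to REB1 ABM1 (94.4%). The median gene shared between 50.7% of bases with ABF1 and 62.4% with RAP1.

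Genes of proteins linked to these factors differed in both directions. A list of 25 partner genes held those of cofactors, relatives and proteins recruited by 1 of the factors, with 2 DNA-binding subunits of the RSC nucleosome remodeller. It held no partner of Abf1. Of the 25, 20 had a promoter hotspot in each of the strains, 5 had one only in WT and 0 had one only in G170D. The shares over all genes were 72.4%, 9.58% and 3.65%. By the 50 bp rule 10 were less covered and 5 more covered in G170D, beside the 28.4% and 13% of all genes, and the median difference was 0 bp, as over all genes. Among the 8 genes of Rap1 partners 4 were less covered and 0 more, and among the 7 genes of Mcm1 partners 4 were less covered and 2 more. Of the 5 genes of Cbf1 partners 1 was less covered and 1 more, and of the 2 RSC genes likewise 1 and 1. Of the 2 genes of Tbf1 partners 0 were less covered and 1 more, and the 1 gene listed for Reb1 was in neither group.

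SIR3, which encodes a silencing protein that Rap1 recruits, had 500 bp of its window covered in WT but 189 bp in G170D. SIR4, the gene of its partner in silencing, had 245 bp covered in WT but 0 bp in G170D. The WT hotspot there lay on chromosome IV, 917054 to 917315. GCR2, which encodes an activator of glycolytic genes that works with Rap1, had 244 and 0 bp. NDD1, the gene of a coactivator at Mcm1-Fkh2 promoters, had 270 and 0 bp. MET31, the gene of a sulfur regulator, had 156 and 0 bp, and RSC3, an RSC subunit gene, 186 and 0 bp. For the 5 genes with a promoter hotspot in WT alone, the highest-scoring WT hotspot of each promoter ranked between percentiles 14.9 and 33.5 of the WT scores.

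Higher coverage in G170D was seen at RSC30, VID22 and YOX1. RSC30, the gene of the Rsc3 relative in RSC, had 81 bp of its window covered in WT but 457 bp in G170D, where a hotspot of 1095 bp (chromosome VIII, 217197 to 218291) enclosed the 81 bp one of WT. Its score ranked at percentile 8.45 in WT and 93.2 in G170D, each within its own list. YOX1, which encodes a homeodomain repressor that binds beside Mcm1, had 221 and 486 bp. VID22, the gene of a Tbf1 cofactor, had 260 and 500 bp. Their highest-scoring promoter hotspots in WT ranked low, at percentile 2.17 for YOX1 and 23.6 for VID22. In G170D they ranked at percentiles 77.2 and 97.3 of that list.

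**Figure D4:**
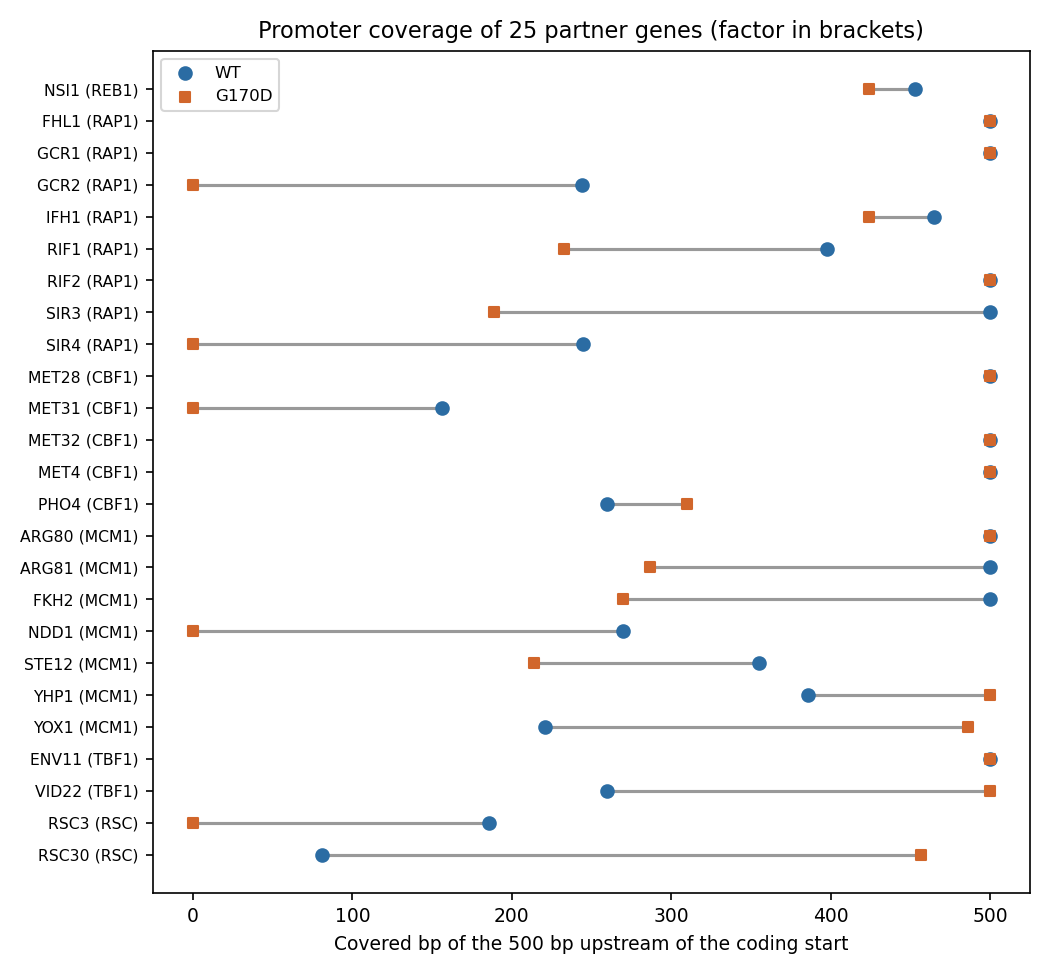
Base pairs of the 500 bp upstream of the coding start that lay in hotspots for 25 partner genes, in WT (circles) and G170D (squares), 1 library each. Brackets give the factor, or the RSC complex, under which each gene was listed. Differences run both ways, from SIR3 at 500 bp in WT and 189 bp in G170D to RSC30 at 81 and 457 bp, and 5 genes have 0 bp in G170D.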

How the data were processed

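DNase-seq was measured in 1 WT and 1 G170D library, grouped by source label. Tools named in the submitters' processing notes are Bowtie 1.0.0 and FastQC 0.10.1, with build sacCer3. Neither the hotspot caller nor its threshold is given in the sources used here. The authors' deposited lists give each hotspot a score of unstated meaning, used only to rank hotspots within a list; percentiles are of that rank. Depth is unknown, and covered length depends on how widely hotspots were called.

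Coordinates, counted from 1, were set against RefSeq assembly R64 (6002 protein-coding genes on 16 chromosomes, coding bodies only), with strand from the W or C of the systematic name. Covered bases, edges and likeness were computed with Python 3.11.15, numpy 2.4.6 and pandas 2.3.3. On simulated lists, 100% of 1338 values over 223 genes were right.

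The 6 genes, the partner list and the measures were chosen with earlier results of these data known. Named genes were the 6, their adjoining neighbours, partners with a hotspot in 1 strain or the 3 largest differences per direction, and the most alike gene of each. The planned search for motifs was left out, since genome sequence was not used here. Alternatives covered the window, score filters, merging and thresholds.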

Additional observations from a re-analysis of the deposited data

How the results depend on the processing

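For the 6 promoters the count less covered in G170D lay between 2 and 4 under all alternatives: windows of 250 and 1000 bp, a window stopped at the upstream gene, the higher-scoring 50% of each list, lists of equal length, merging of hotspots at most 100 bp apart and thresholds of 25 and 100 bp. None of the 6 was more covered under any of these. In the 500 bp window, however, only RAP1 had room for a gain of 50 bp, and REB1 also for one of 25 bp. Most of these alternatives could therefore hardly give another count. REB1 and CBF1 were counted as less covered each time, but the other genes changed. In the 1000 bp window ABF1 and RAP1 were counted and TBF1 was not. With differences from 100 bp TBF1 (-96 bp) was not counted, and from 25 bp RAP1 was. With the higher-scoring 50% of each list 5 of the 6 had a promoter hotspot in both strains, with none left at RAP1, and under the other alternatives all 6 had one. The start-side edge lay farther upstream at 3 genes under each alternative, and farther downstream at 1 with differences from 25 bp. The window alternatives could not change this edge, because the same hotspot next to the gene touches each window.

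Coding body counts changed more than promoter counts, both with score filters and with other thresholds. The count less covered in G170D was 1 instead of 3 in lists of equal length, and 1 with differences from 20 percentage points. With the higher-scoring 50% of each list it was 2. The count more covered was 0 instead of 1 with the higher-scoring 50% of each list, with the first 500 bp of the body and from 20 points, and 2 from 5 points. Past the coding end, the count more covered was 0 from 100 bp.

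Among the 25 partners, 5 instead of 10 were less covered with the higher-scoring 50% of each list, and 3 instead of 5 were more covered in a 250 bp window. With the higher-scoring 50%, 2 partners had a promoter hotspot in WT alone and 3 in G170D alone. Those 3 were RSC30, VID22 and YOX1, whose WT hotspots scored low. With lists of equal length 2 had one in G170D alone. Score filters leave fewer hotspots; the cause of the other changes was not tested. No paired analysis was possible because each strain has 1 library. Unknown depth limits every statement that a stretch lay outside a hotspot.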
